A study of Mus musculus with 2 samples.

Results

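Macrophage-rich spots of 2 mouse melanoma sections were compared with the rest of the tissue around them, within each section. Spots with at least 5000 UMIs (unique molecular identifiers, counts of captured molecules) were kept, the top 10% of them by the summed CPM (counts scaled to an equal UMI total) of Col1a1, Col1a2 and Col3a1 were left out, and the top 10% of the remaining spots by the summed CPM of C1qa, C1qb, C1qc, Csf1r and Cd68 were taken. This gave 215 of 2746 spots in the KO section and 240 of 3066 in the WT section, 455 of 5812 in all. They are called macrophage-rich spots here, and the 1936 KO and 2164 WT remaining spots below the cut are called other spots.

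Mice were inoculated with cells of the pigmented melanoma line B16.F10 and not treated; they were aged 8 to 16 weeks, and tumours were taken on day 15. The KO section came from a Foxp3-Cre × CK2b-fl/fl mouse (also labelled Csnk2bTreg-/-), in which the Foxp3 promoter drives Cre in regulatory T cells, so that macrophages, fibroblasts and the injected tumour cells are not its target. The WT section has the genotype label wild-type and is also described as coming from a Csnk2bfl/fl mouse. By that description both hosts carried the floxed allele of Csnk2b, the regulatory subunit of protein kinase CK2. Each genotype had 1 section of 1 tumour, 10 µm thick, fixed in formalin and embedded in paraffin, and was read with Visium CytAssist, which moves ligated probe pairs from the tissue onto a grid of barcoded spots. A spot can hold several cells of different types, and fewer cells of a type cannot be told apart from less RNA per cell.

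Macrophages are phagocytes that clear dead cells, present antigen and release chemokines that draw in other leukocytes. In tumours they come from blood monocytes and from cells resident in the tissue, and their state varies with place: those of connective tissue often carry the scavenger receptors Mrc1 and Cd163, those exposed to interferon gamma carry MHC class II and Cxcl9. The ranking genes are the 3 subunits of the complement component C1q, the receptor for the growth factor CSF1 and the lysosomal membrane protein CD68. C1qa, C1qb and C1qc lie side by side on chromosome 4 (GRCm38, the assembly named mm10; C1qb starts at 136880126 and C1qa ends at 136898844), Cd68 lies on chromosome 11 and Csf1r on chromosome 18.

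The values that chose the spots are given as a description. The summed CPM of the ranking genes had a median of 1426 and a highest value of 10035 in KO macrophage-rich spots, against a median of 125.8 in KO other spots. It had a median of 5507 and a highest value of 13580 in WT macrophage-rich spots, against 382.7 in WT other spots. The last spots inside the cut held 965.3, 969.1 and 972.6 CPM and the first outside held 961.7, 956.3 and 949.9 CPM in the KO section. In the WT section the cut lay between 3898 and 3896 CPM, so a WT spot needed a higher level to be taken and the groups are not defined by a common level. The distribution runs on without a gap in both sections, as the plot of summed levels shows.

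**Figure D1:**
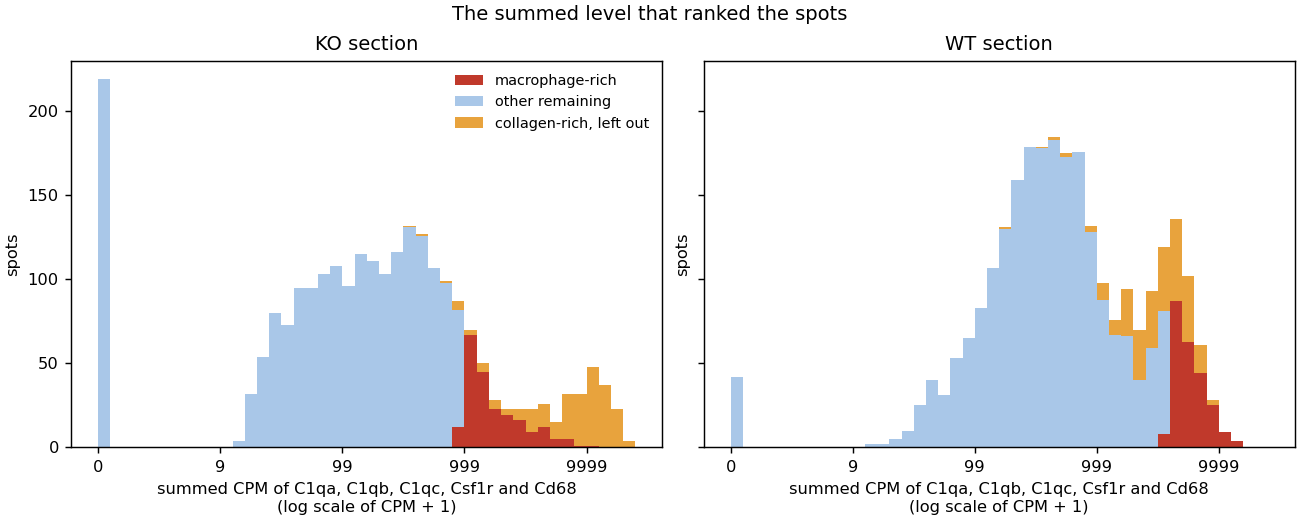
Stacked histograms of spots by the summed CPM of the 5 ranking genes (horizontal, log scale of CPM + 1) in the KO section (left) and the WT section (right). Macrophage-rich spots (red) are the top 10% of spots left after the collagen-rich spots (orange) were removed; their lowest value was 965.3 CPM in KO and 3898 CPM in WT.

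The words "outside collagen stroma" held only in part. Macrophage-rich spots had a median of 2141 CPM of the 3 collagens in the KO section, against 86.3 CPM in other spots and 21257 CPM in the collagen-rich spots left out. In the WT section the medians were 56393 CPM, 382 CPM and 111025 CPM in that order. Of the macrophage-rich spots, 102 of 215 in KO and 146 of 240 in WT lay in the top 10% of the remaining spots by collagen, and only 1 KO spot and no WT spot lay at or below the median of other spots. The collagen-rich spots left out were themselves rich in the ranking genes: 232 of 239 in KO and 108 of 267 in WT stood above the macrophage cut of their section. The spots are therefore macrophage-rich spots below the collagen cut, which lay at about 9140 CPM in KO and 81872 CPM in WT. These cuts are not a common level. The lowest WT macrophage-rich spot held 12308 CPM of the 3 collagens, so every WT macrophage-rich spot lay above the KO cut. Contrasts between the sections below therefore set spots of unlike collagen content beside each other.

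Depth differed between the groups. KO macrophage-rich spots had a median of 38445 UMIs and 7915 genes, against 42621 UMIs and 7801 genes in KO other spots. WT macrophage-rich spots had a median of 11835 UMIs and 4439 genes, against 34711 UMIs and 7327 genes in WT other spots, so that 1 UMI was worth 84.5 CPM in a median WT macrophage-rich spot and 26.0 CPM in a median KO one. Summed, the groups held 8344966 and 82550243 UMIs in KO and 3337011 and 80629346 UMIs in WT. The 2 matrices share 2138 barcodes, which name positions of the grid and not cells. Csnk2b stood at 376 CPM in KO macrophage-rich spots against 398 CPM in KO other spots, and at 210 CPM in WT macrophage-rich spots against 412 CPM in WT other spots. Foxp3 had 11 UMIs in all KO macrophage-rich spots and 6 in all WT ones, so the deletion in regulatory T cells could not be checked in them.

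Ratios below are the CPM of summed UMIs in macrophage-rich spots over that in other spots of the same section, with an exact conditional binomial interval at 95% that covers counting error only. Because the spots were ranked on genes of the same cells and each genotype had 1 section, no test, standard error or p-value was computed from spots. A ratio of at least 2 or at most 0.5 is named 2-fold, among genes with at least 500 UMIs over the remaining spots of a section, which are called measured. A gene can be measured only because it is high in the macrophage-rich spots, so shares of measured list members describe those members and no more. Of all measured genes, 5.11% were 2-fold higher and 0.88% lower in KO, and 13.3% higher and 21.4% lower in WT. Counts of list members below are to be read beside these shares.

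The macrophage-rich spots lay at edges. In the KO section the largest group formed a thin band along the right margin of the tumour, with smaller groups at the upper left, further inside and in the lower part, and in the WT section most of them filled a connective area in the upper left that borders the collagen-rich spots. Within 2 grid steps of bare grid or the frame lay 62.3% of KO macrophage-rich spots against 19.6% of KO other spots, and 69.6% of WT macrophage-rich spots against 39.7% of WT other spots. Of KO macrophage-rich spots, 34.0% touched a collagen-rich spot against 3.72% of KO other spots, with a median distance of 2 against 11 steps. In the WT section 26.3% of macrophage-rich and 5.04% of other spots touched one, with medians of 3 and 12 steps.

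The spots clustered. Touching spots formed 46 patches in KO and 27 in WT, of which 5 in each section had 10 spots or more. These 5 held 136 of the 215 KO spots and 189 of the 240 WT spots, and the largest held 64 and 83 spots. Single spots without a touching neighbour of the kind numbered 23 in KO and 13 in WT. By quadrant of the section (upper left, upper right, lower left, lower right), the KO spots numbered 39, 35, 35 and 106 and the WT spots 182, 15, 43 and 0. The WT values are thus mostly values of one quadrant.

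**Figure D2:**
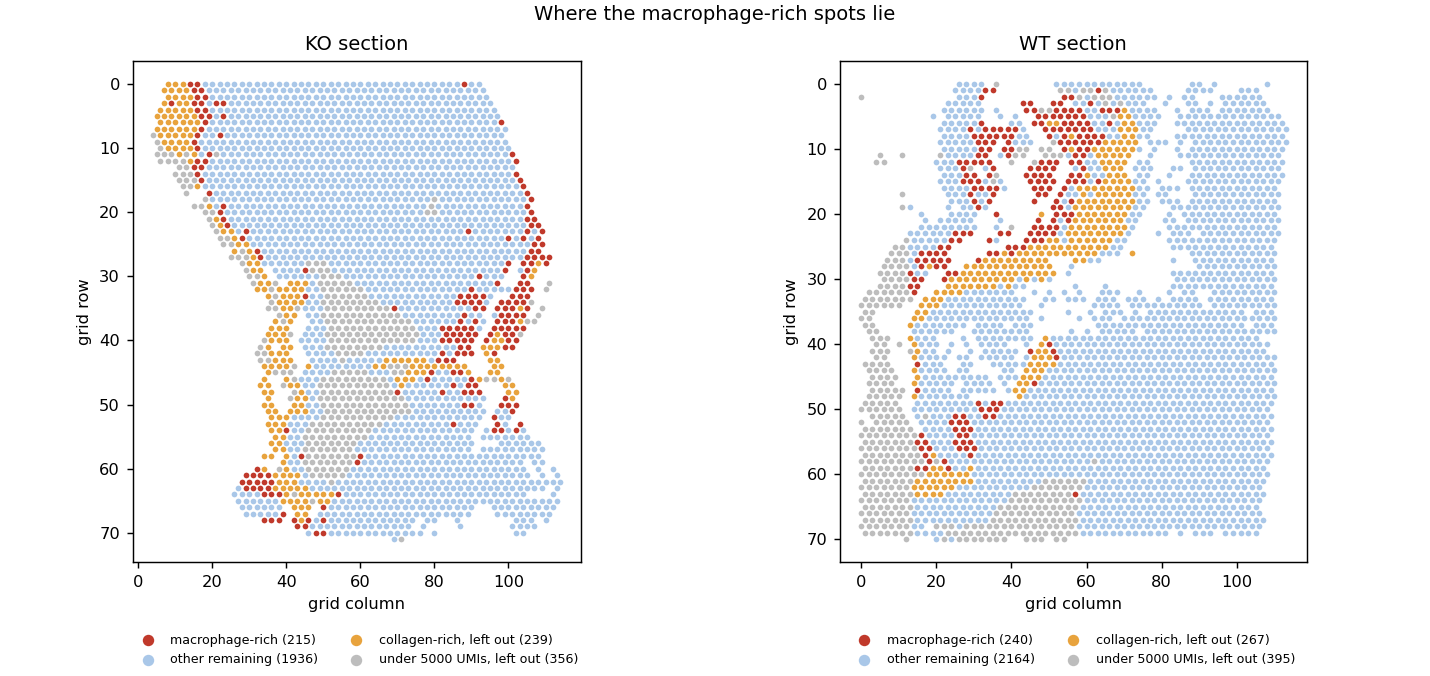
Position of every spot under tissue in the KO section (left) and the WT section (right); axes are grid column and grid row. Macrophage-rich spots (red) follow the tumour margin in KO and fill an upper left area beside the collagen-rich spots (orange) in WT; other spots are pale blue and spots under 5000 UMIs grey.

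Levels were lower with distance. The summed CPM of 20 macrophage genes not used in the ranking was 1864 in KO macrophage-rich spots, 752 at 1 step from them, 604 at 2 steps and 336 at 6 steps or more. In WT it was 6081, 3140, 1982 and 676 at the same distances. MHC class II genes summed to 1787, 381, 258 and 87.6 CPM in KO and to 3656, 1849, 955 and 142 CPM in WT. T cell genes summed to 284, 92.8, 75.1 and 30.1 CPM in KO and to 158, 108, 57.3 and 17.7 CPM in WT. Melanocytic genes ran the other way, with 37395, 46242, 49212 and 54123 CPM in KO and 6263, 26068, 36007 and 49971 CPM in WT. The step next to the macrophage-rich spots thus held much less MHC class II in KO, and a more gradual decline in WT.

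**Figure D3:**
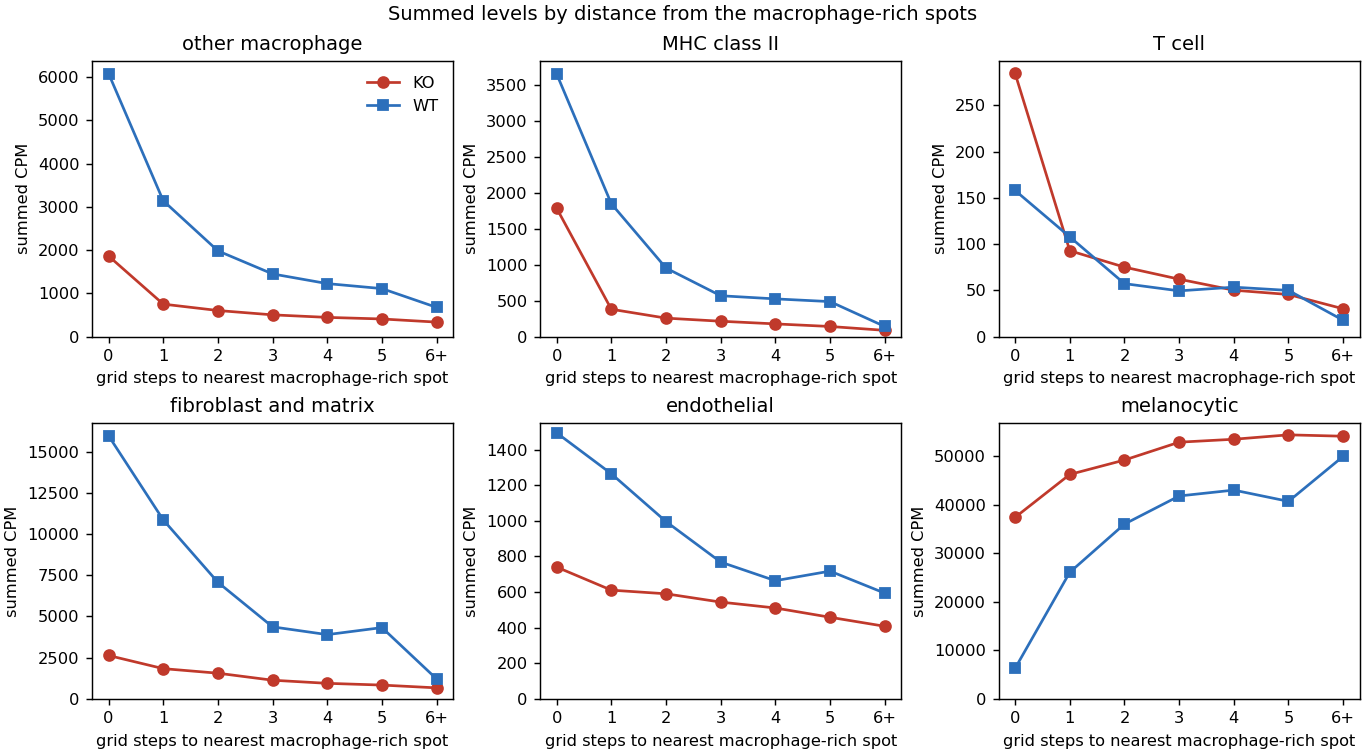
Summed CPM of 6 gene lists (vertical, from 0) by grid steps to the nearest macrophage-rich spot (horizontal; 0 is the macrophage-rich spots, the last point pools 6 steps or more) for KO (red circles) and WT (blue squares). Immune and matrix lists are highest at 0 and melanocytic genes lowest. MHC class II genes fell from 1787 to 381 CPM at 1 step in KO and from 3656 to 1849 CPM in WT. T cell, fibroblast and endothelial levels in WT did not fall at every step.

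Macrophage genes that the ranking did not use were higher in the macrophage-rich spots of both sections. In KO, 12 of 13 measured members of the list of 20 were 2-fold higher and none 2-fold lower (median log2 ratio 2.98), where 5.11% of all measured genes were 2-fold higher, 0.88% were 2-fold lower and the median log2 ratio of all genes was -0.03. In WT, 17 of 18 were 2-fold higher and none lower, with a median log2 ratio of 3.21, where 13.3% of all measured genes were 2-fold higher, 21.4% were 2-fold lower and the median of all genes was -0.39. The genes share cells with the ranking genes, so this describes the choice and does not test it.

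Ctss, a lysosomal protease that trims the MHC class II invariant chain, ran from 0 to 2482 CPM per spot with a median of 300 in KO macrophage-rich spots, against 0 to 546 CPM with a median of 0 in KO other spots. In WT it ran from 142 to 2706 CPM with a median of 740 in macrophage-rich spots, against 0 to 2430 CPM with a median of 43.7 in other spots. The groups overlapped in both sections, and the ratios of summed CPM were 8.90 (8.47 to 9.35) in KO and 8.59 (8.22 to 8.99) in WT. Fcer1g, the signalling chain of Fc receptors, had ratios of 7.87 (7.43 to 8.33) in KO and 8.68 (8.33 to 9.04) in WT. Fcgr4, a receptor for IgG, led the KO list at 9.21 and stood at 6.98 in WT. Cd14, a co-receptor for bacterial lipopolysaccharide, led the WT list at 16.6 (14.5 to 19.1). Adgre1, which encodes the macrophage antigen F4/80, had 139 UMIs in KO macrophage-rich spots and 189 in WT ones and ratios of 12.3 (9.50 to 15.9) and 11.95 (9.99 to 14.3), though it was below the measured minimum in KO. The exception in both sections was Sirpa, the receptor for the "do not eat me" signal CD47, with ratios of 1.10 in KO and 1.33 in WT and 246 CPM in KO other spots. Lyz2, often the most abundant macrophage transcript, had only 40 UMIs in KO and 82 in WT macrophage-rich spots, and how well its probes captured it was not tested.

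**Figure D4:**
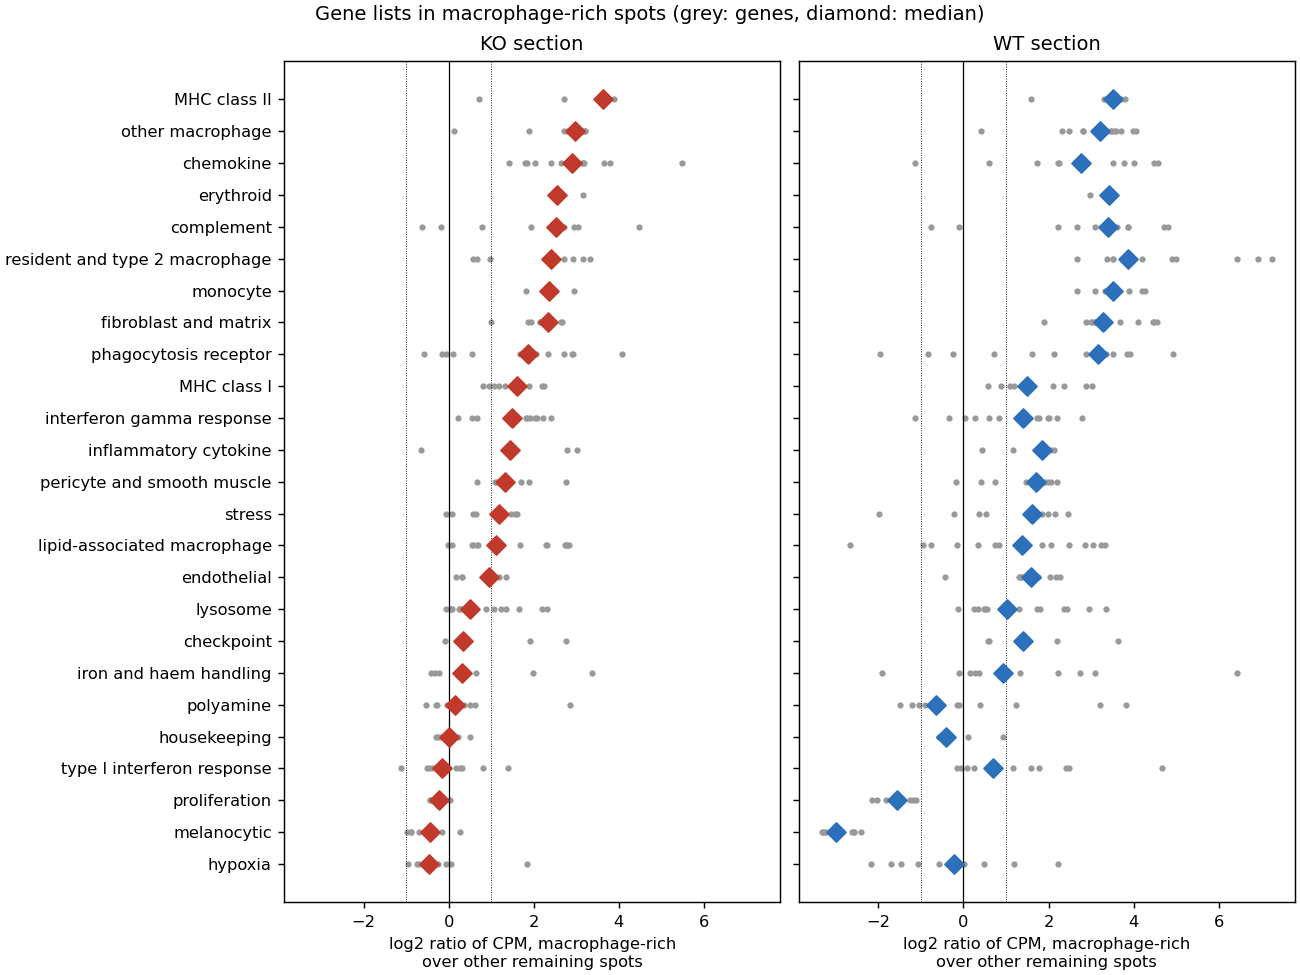
Log2 ratio of CPM in macrophage-rich over other spots (horizontal) for every gene list with at least 3 measured members in both sections, KO left and WT right; grey points are genes, diamonds list medians, dotted lines a 2-fold difference. MHC class II had medians of 3.63 in KO and 3.52 in WT; melanocytic genes had -0.43 in KO and -2.997 in WT.

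Resident and type 2 macrophage genes had unlike ratios in the sections. Summed over the 17 list genes in the matrix, measured or not, the ratios were 2.61 (2.55 to 2.67) in KO and 13.4 (13.3 to 13.6) in WT. All 13 measured members were 2-fold higher in WT (median log2 ratio 3.87), and 6 of 9 in KO (2.41). These medians come from unlike sets of genes. Cd209f, Retnla and Cd163 reached the measured minimum in WT only through the macrophage-rich spots. Mrc1, the mannose receptor, had per-spot medians of 83.5 CPM in KO macrophage-rich spots against 0 in KO other spots, and of 604 CPM in WT macrophage-rich spots against 23.4 CPM in WT other spots. Its ratios were 6.51 (5.96 to 7.12) in KO and 14.3 (13.5 to 15.2) in WT. Cd163, the scavenger receptor for haemoglobin bound to haptoglobin, had 96 UMIs in KO macrophage-rich spots (11.5 CPM) and 698 in WT ones (209 CPM), with a WT ratio of 85.6 (73.0 to 101). Retnla, a secreted protein of macrophages exposed to interleukin 4, had 14 UMIs in KO and 1226 in WT macrophage-rich spots, with a WT ratio of 121 (105 to 139). Which cells of these mixed spots carried Retnla was not tested. Cd209f, a C-type lectin, had 160 and 1274 UMIs there and a WT ratio of 152 (131 to 178), the highest of all measured genes in that section.

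Their spread over the WT spots differed. Retnla had a median of 0 and a highest value of 8676 CPM per WT macrophage-rich spot, and the patch of 21 spots, all of them at an edge, held 3957 CPM against 342 CPM in the largest WT patch and 22.1 CPM in the second largest. Cd209f stood at 2759 CPM in the same 21 spots and at 543 CPM in the largest patch, with a per-spot median of 132 CPM. Cd163 was more widespread, with a UMI in 182 of the 240 spots and a per-spot median of 178 CPM, and stood at 699 CPM in the 21 spots and at 17.4 CPM in a patch of 17 spots in the lower left. The genes of this list that other cells also express went apart in KO: Selenop, a secreted selenoprotein, had a ratio of 1.57 and Maf, a transcription factor, 1.48 in KO, against 10.3 and 6.37 in WT. Pf4, a chemokine of platelets and some macrophages, was the highest KO member at 10.0 (9.41 to 10.6) and stood at 14.2 (13.9 to 14.6) in WT.

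Genes of lipid-associated macrophages split within the list. Trem2, the receptor that gives these cells their name, had ratios of 6.70 (5.65 to 7.94) in KO and 10.1 (9.17 to 11.01) in WT, and Lgals3, the lectin galectin 3, 7.10 and 4.16. Spp1, which encodes osteopontin, stood at 764 CPM in KO macrophage-rich spots against 113 CPM in KO other spots, a ratio of 6.73 (6.52 to 6.95), and 403 CPM in WT macrophage-rich spots against 227 CPM in WT other spots, a ratio of 1.77 (1.67 to 1.87). Its highest spots were other spots in both sections, at 22724 CPM in KO and 29811 CPM in WT. Gpnmb, shared by macrophages and melanoma cells, had ratios of 0.99 in KO and 0.16 in WT. Fabp5, a fatty acid carrier, stood at 1.46 in KO and 0.90 in WT, and Apoe, a lipid carrier, at 1.60 and 2.67.

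Scavenging and complement genes were mostly higher: 8 of 13 measured phagocytosis receptors were 2-fold higher in KO, and 11 of 15 were higher and 1 lower in WT. Over all measured genes 5.11% were higher in KO, and 13.3% were higher and 21.4% lower in WT. Marco, a scavenger receptor for bacteria, was the highest of the phagocytosis receptors in both sections, at 16.9 (14.3 to 20.1) in KO and 30.3 (26.1 to 35.3) in WT. Its chromosome 1 gene spans 120474538 to 120505024. Tyro3, a TAM receptor that melanoma cells also express, was lowest at 0.67 in KO and 0.26 in WT. In the complement list, which leaves out the C1q genes, 7 of 10 measured members were 2-fold higher in KO and 9 of 11 in WT. C3, the central component, had ratios of 22.2 (20.4 to 24.3) and 26.0 (24.4 to 27.8). Cd59a, which blocks the lytic pore, was lowest in KO at 0.64, and C2 lowest in WT at 0.59. Of 18 lysosomal genes, 6 were 2-fold higher in KO and 10 in WT, with medians of 0.51 and 1.03 on the log2 scale, and the proteases Ctsh at 4.93 in KO and Ctsc at 10.2 in WT had the highest ratios. Lysosomes and melanosomes share many of these proteins, and other spots held 7231 CPM of the list in KO and 9680 CPM in WT.

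Of the measured iron handling genes, 2 of 8 were 2-fold higher in KO, and 5 of 10 were higher and 1 lower in WT. Over all measured genes 5.11% were higher in KO, and 13.3% were higher and 21.4% lower in WT. Hmox1, which breaks down haem, had ratios of 3.95 (3.79 to 4.11) and 4.65 (4.51 to 4.79), and Slc11a1, an iron exporter of phagosomes, 10.2 and 8.49. Tfrc, the transferrin receptor of dividing cells, was lowest in both at 0.75 and 0.27. Haemoglobin transcripts were also higher: the erythroid list summed to 7886 CPM in KO macrophage-rich spots against 1199 CPM in KO other spots, and to 2137 CPM against 237 CPM in WT. All 4 measured members in KO and all 3 in WT were 2-fold higher, the per-spot sum ran from 0 to 285542 CPM in KO and to 36730 CPM in WT macrophage-rich spots, and the part of blood in the iron genes was not tested.

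MHC class II genes had the highest median of the immune lists in KO and stood second to resident and type 2 macrophage genes in WT, among lists with at least 3 measured members. In KO, 5 of 6 measured members were 2-fold higher (median log2 ratio 3.63), and in WT all 6 (3.52). The shares of higher genes over all measured genes were 5.11% in KO and 13.3% in WT. The class II molecules present peptides to CD4 T cells, and their genes share a promoter layout that binds a common set of factors and needs the co-activator CIITA. The promoter stretches of 3 genes from RefSeq (GRCm38.p6) are shown because they belong to the list's highest and lowest ratios and to one of its most abundant genes. Each is the 120 bases before the annotated start, on the gene's strand, and capitals mark every match to GATTGG (the Y box, an inverted CCAAT box) or CAACNGATG (letters found in the X box) on either strand.
H2-Aa, chr17:34287824-34287943, minus strand: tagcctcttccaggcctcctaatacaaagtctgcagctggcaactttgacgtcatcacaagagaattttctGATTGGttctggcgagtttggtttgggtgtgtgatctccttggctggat
H2-Eb1, chr17:34305747-34305866, plus strand: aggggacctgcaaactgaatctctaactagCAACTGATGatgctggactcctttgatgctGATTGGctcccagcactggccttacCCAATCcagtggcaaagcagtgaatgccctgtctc
H2-DMb1, chr17:34153071-34153190, plus strand: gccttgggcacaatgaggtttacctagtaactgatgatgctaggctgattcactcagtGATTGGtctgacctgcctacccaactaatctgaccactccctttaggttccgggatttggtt
GATTGG started at -49 in H2-Aa, at -60 and, on the other strand, at -35 in H2-Eb1, and at -62 in H2-DMb1, counted from the start. The motifs did not overlap. Of the other genes of the list with an entry, H2-DMb2, H2-Oa and H2-Ob also held GATTGG in this window. Both stretches of H2-DMa, which encodes the partner of H2-DMb1, held neither motif, and H2-DMa had ratios of 6.50 in KO and 9.85 in WT. H2-DMb2, H2-Oa, H2-Ob and H2-DMa were chosen after their values were seen. GATTGG stood in 9.67% and CAACNGATG in 0.24% of the 120-base stretches of 32851 RefSeq promoters.

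H2-Aa, the alpha chain of I-A, ran from 0 to 4836 CPM with a median of 174 in KO macrophage-rich spots, against 0 to 423 CPM with a median of 0 in KO other spots. In WT it ran from 0 to 1777 CPM with a median of 317 in macrophage-rich spots, against 0 to 1657 CPM with a median of 0 in other spots. Some spots of each kind had no UMI of it, so the groups overlapped, and the ratios were 13.3 (12.5 to 14.2) in KO and 10.6 (9.95 to 11.3) in WT. H2-Eb1, the beta chain of I-E, had the highest ratio of the list in both sections, 14.7 (13.6 to 15.9) and 13.8 (12.9 to 14.7). Cd74, the invariant chain, stood at 1040 CPM in KO macrophage-rich spots against 90.3 CPM in KO other spots and at 2084 CPM in WT macrophage-rich spots against 168 CPM in WT other spots. H2-DMb1, part of the peptide editor of class II, was lowest at 1.64 (1.45 to 1.84) in KO and 3.03 (2.65 to 3.45) in WT.

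MHC class I genes were higher by less. In each section 9 of 11 were 2-fold higher, with medians of 1.61 in KO and 1.502 in WT on the log2 scale. H2-K1, a class I heavy chain, led in KO at 4.72 (4.41 to 5.04), and Psmb8, an immunoproteasome subunit, in WT at 8.13 (7.56 to 8.73). Of the interferon gamma responsive genes, 13 of 16 measured were 2-fold higher in KO and none lower, and 10 were higher and 1 lower in WT. Gbp2, a guanylate-binding protein, led in KO at 5.28 (5.005 to 5.56), and Irf8, a transcription factor of monocytes and macrophages, in WT at 6.85 (6.17 to 7.59). Of 15 type I interferon genes, 1 was 2-fold higher and 1 lower in KO and 6 were higher in WT, with medians of -0.16 and 0.69. Of all measured genes, 5.11% were 2-fold higher and 0.88% lower in KO, and 13.3% were higher in WT. The KO count of higher genes is near its share, and the KO count of lower genes rests on 1 gene. Ifi27l2a, an interferon-induced membrane protein, was highest in both at 2.63 and 25.4, while Usp18, which restrains the receptor, was the 1 KO member 2-fold lower, at 0.46.

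Chemokines were high in both sections, and Cxcl10 pointed opposite ways. Of 12 measured, all were 2-fold higher in KO, and 10 were higher and 1 lower in WT. Over all measured genes 5.11% were higher in KO, and 13.3% were higher and 21.4% lower in WT. Ccl8, a chemokine for monocytes and T cells, lies on chromosome 11 from 82115185 to 82116799. It ran from 0 to 9387 CPM with a median of 395 in KO macrophage-rich spots, against 0 to 753 CPM with a median of 0 in KO other spots. In WT it ran from 0 to 5034 CPM with a median of 739 in macrophage-rich spots, against 0 to 2010 CPM with a median of 27.9 in other spots. Its ratios were 13.8 (13.2 to 14.4) and 16.1 (15.3 to 16.8). Ccl6, a chemokine of myeloid cells, had the highest WT ratio of the list at 23.7 (23.1 to 24.3) and 8.80 in KO. Cxcl14, an epithelial and fibroblast chemokine, had the highest KO ratio at 44.5 (37.4 to 53.1) and 11.4 in WT. In KO it was concentrated in 2 patches, with 247 CPM in the 64 spots of the right margin and 243 CPM in 17 spots at the upper left, against 5.5 CPM in the patch of 27 spots further inside.

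Cxcl9 and Cxcl10, which draw in CXCR3-bearing T cells, behaved differently from each other. Cxcl9 stood at 102 CPM in KO macrophage-rich spots against 25.02 CPM in KO other spots, a ratio of 4.09 (3.77 to 4.43), and 21.3 CPM in WT macrophage-rich spots against 6.45 CPM in WT other spots, a ratio of 3.30 (2.54 to 4.23) from 71 UMIs. Cxcl10 stood at 491 CPM in KO macrophage-rich spots against 185 CPM in KO other spots, a ratio of 2.65 (2.56 to 2.74), and at 162 CPM in WT macrophage-rich spots against 357 CPM in WT other spots, a ratio of 0.45 (0.42 to 0.49). The rule was also applied only to spots at or above the section's median of melanocytic genes, which in WT took none of the macrophage-rich spots. The WT ratio was 2.16 in that other set and 1.20 at equal melanocytic content, where the KO values were 1.83 and 1.51. In KO the ratio of Cxcl10 was above 1 in all 4 quadrants, from 1.71 to 2.82, and in WT it was below 1 in the 3 quadrants that hold macrophage-rich spots, from 0.31 to 0.78.

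Growth factors of macrophages were sparse. Csf1, the ligand of CSF1R, had 82 UMIs in KO and 116 in WT macrophage-rich spots and ratios of 3.21 (2.47 to 4.13) and 3.998 (3.26 to 4.87). Il34, the other ligand, had 19 and 40 UMIs and ratios of 1.90 (1.10 to 3.12) and 6.08 (4.19 to 8.64). Among cytokine genes, Il1rn, the interleukin 1 receptor antagonist, had ratios of 8.04 (7.56 to 8.56) in KO and 2.25 (1.90 to 2.65) in WT, and Tgfb1, a cytokine that restrains immune cells, 2.73 and 3.68. Saa3, an acute-phase protein made by macrophages and stromal cells, was among the highest KO genes at 24.3 (21.6 to 27.5) and stood at 4.14 (3.53 to 4.84) in WT.

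Arg1, which splits arginine into urea and the polyamine precursor ornithine, was the highest member of the polyamine list in both sections. It stood at 77.3 CPM in KO macrophage-rich spots against 10.7 CPM in KO other spots, a ratio of 7.25 (6.54 to 8.04), and 1120 CPM in WT macrophage-rich spots against 79.7 CPM in WT other spots, a ratio of 14.1 (13.5 to 14.6). Collagen-rich spots held 195 CPM in KO and 3127 CPM in WT, more than the macrophage-rich spots did. Of the WT patches, the largest held 2957 CPM and the others 41.3 to 645 CPM, and without the largest the WT ratio was 5.003. No other polyamine gene was 2-fold higher in KO. In WT 3 of 13 were 2-fold higher and 3 lower, with Sms, spermine synthase, lowest at 0.36, and the lower share is near the 21.4% of all measured WT genes.

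T cell genes stood higher beside the macrophage genes. In KO all 6 measured members of 16 were 2-fold higher (median log2 ratio 2.54), against 5.11% of all measured KO genes. Trbc2, a T cell receptor beta constant region, led at 6.72 (5.89 to 7.66). In WT none of the 16 reached the measured minimum. Their sum was 284 CPM in KO macrophage-rich spots against 50.02 CPM in KO other spots, and 158 CPM in WT macrophage-rich spots against 28.7 CPM in WT other spots, ratios of 5.69 (5.40 to 5.98) and 5.50 (4.99 to 6.05). Cd3e, a signalling chain of the receptor, had 253 UMIs in KO and 38 in WT macrophage-rich spots, and ratios of 5.44 (4.65 to 6.36) and 5.13 (3.51 to 7.31). Cd8a had 142 and 16 UMIs and ratios of 4.10 and 3.68, and Cd4 had 50 and 33 UMIs and ratios of 6.26 and 10.2. Of the 11 genes of the CD4 and regulatory T cell list, 2 were measured in KO and 1 in WT, and they stood near 1. The co-stimulatory receptor Tnfrsf9 stood at 0.89 in KO and 0.92 (0.66 to 1.27) in WT, and the transcription factor Ikzf2 at 0.98 in KO. The median limits of the KO intervals were 0.75 and 1.15. That list summed to ratios of 1.30 (1.18 to 1.43) in KO and 1.89 (1.62 to 2.19) in WT. Ccl5, a chemokine of activated T cells, had ratios of 3.48 (3.32 to 3.64) in KO and 1.51 (1.32 to 1.72) in WT. No neutrophil or NK cell gene was measured. Neutrophil genes summed to 46.6 CPM in KO and 69.2 CPM in WT macrophage-rich spots, ratios of 5.90 (5.19 to 6.70) and 7.51 (6.45 to 8.72), with Ly6g and Ltf at 0 in WT, and NK cell genes to 6.35 and 8.39 CPM. Dendritic cell genes summed to ratios of 0.90 (0.87 to 0.93) in KO and 1.45 (1.39 to 1.51) in WT. Other spots held 492 CPM of this list in KO and 500 CPM in WT, and only 2 of its 11 genes were measured. Fscn1 stood at 0.87 in KO and 1.26 in WT, and Zbtb46 at 1.12 and 2.07. Which cells carried this sum was not tested. B and plasma cell genes summed to 24.3 CPM in KO and 564 CPM in WT macrophage-rich spots, and their members differed. Ighm, the heavy chain of IgM, had a WT ratio of 15.5 with a median of 0 per macrophage-rich spot. Cd79a, a chain of the B cell receptor, stood at 0.93 in KO and 0.46 in WT. It stood at 1.62 in another set of WT spots, taken by the rule only among spots rich in melanocytic genes.

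The spots were mixed tissue, and the mixture differed between the sections. Fibroblast and matrix genes, which leave out the collagens of the rule, were 2-fold higher for 11 of 12 measured members in KO and all 15 in WT, with medians of 2.34 and 3.28. The shares of higher genes over all measured genes were 5.11% in KO and 13.3% in WT. Dcn, the proteoglycan decorin, had ratios of 6.31 (5.66 to 7.03) and 22.2 (20.9 to 23.6). The sum of the list ran from 384 to 7056 CPM per KO macrophage-rich spot and from 5245 to 28713 CPM per WT one. The 12 highest WT genes included genes of loose connective tissue, Pi16 at 69.2, Tnxb at 63.2 and Clec3b at 57.8. Adipocyte genes summed to 216 CPM in KO macrophage-rich spots against 83.5 CPM in KO other spots. In WT they summed to 530 CPM against 64.7 CPM, and the part of fat cells in any ratio was not tested. What part matrix cells had in any ratio beyond the comparison at equal collagen was not tested.

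Skeletal muscle genes were high in some KO patches. All 9 measured muscle genes of 12 were 2-fold higher in KO, against 5.11% of all measured KO genes, with a median ratio of 50.03. Of the 12 highest KO genes 7 were of this list, led by Acta1, skeletal actin, at 82.0 (73.5 to 91.7). The sum ran from 0 to 92762 CPM per KO macrophage-rich spot with a median of 37.9 CPM, so most spots had little. Acta1 stood at 1119 CPM in the patch of the right margin and 971 CPM in the one at the upper left, and between 0 and 1.6 CPM in the 3 other large patches. Without the muscle-rich spots, the KO list medians were 2.68 for macrophage and 3.23 for MHC class II genes. In WT 2 muscle genes were measured and Acta1 had a ratio of 5.56.

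Melanocytic genes differed widely between the sections. Melanocytic genes had a median log2 ratio of -0.43 in KO, where none of 12 was 2-fold lower and Mlana, a melanosome antigen, stood at 1.21 (1.17 to 1.24). All 12 were 2-fold lower in WT, with a median of -2.997 and Tyr, tyrosinase, at 0.10. Over all measured genes 0.88% were 2-fold lower in KO and 21.4% in WT, with median log2 ratios of -0.03 and -0.39. Pmel, the fibril protein of melanosomes, stood at 3961 CPM in KO macrophage-rich spots against 5021 CPM in KO other spots and 1092 CPM in WT macrophage-rich spots against 6716 CPM in WT other spots. Only 22 KO macrophage-rich spots and no WT one reached the section's median of melanocytic genes. Proliferation genes went the same way, with Mki67 at 0.83 (0.81 to 0.86) in KO and 0.35 (0.32 to 0.38) in WT. The lowest KO genes included Kcnj13, a potassium channel, at 0.17, Gsta4, a detoxifying transferase, at 0.22, and S100b, a calcium-binding protein of melanocytes and nerve, at 0.31. In WT these stood at 0.06, 0.09 and 0.10.

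Endothelial genes differed by sum and by spot. Endothelial genes summed to 740 CPM in KO macrophage-rich spots against 483 CPM in KO other spots, with per-spot medians of 674 and 395 CPM. In WT they summed to 1494 CPM against 662 CPM, but the per-spot medians were 301 CPM in macrophage-rich and 519 CPM in other spots. Plvap, a protein of fenestrated endothelium, had a WT median of 0 and a highest value of 6917 CPM per macrophage-rich spot. Hypoxia genes had medians of -0.46 in KO and -0.23 in WT. Egln3, an oxygen sensor, stood at 3.57 and 2.29, while Car9, a carbonic anhydrase, stood at 0.60 and 0.22.

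Over all genes measured in both sections, 9610 in number and without the 8 genes of the rule, 475 (4.94%) were 2-fold higher in KO and 984 (10.2%) in WT. Of these 440 were the same genes, 92.6% of the KO and 44.7% of the WT set. Since each section picked its own spots and shares no sample with the other, the KO values of genes chosen in WT were not used to choose them, though the ranking genes were the same in both. Of the 9610 genes, 76 (0.79%) were 2-fold lower in KO and 2128 (22.1%) in WT. Of these 62 were the same genes, 81.6% of the KO and 2.91% of the WT set. The 5 genes 2-fold higher in KO and 2-fold lower in WT were Cxcl10, Hmga2, Igf2bp1, Prph and Megf10, and Selenbp1 was the reverse. Hmga2, Megf10 and Selenbp1 here, and Lyz2, Ly6g and Ltf above, were chosen after their values were seen.

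**Figure D5:**
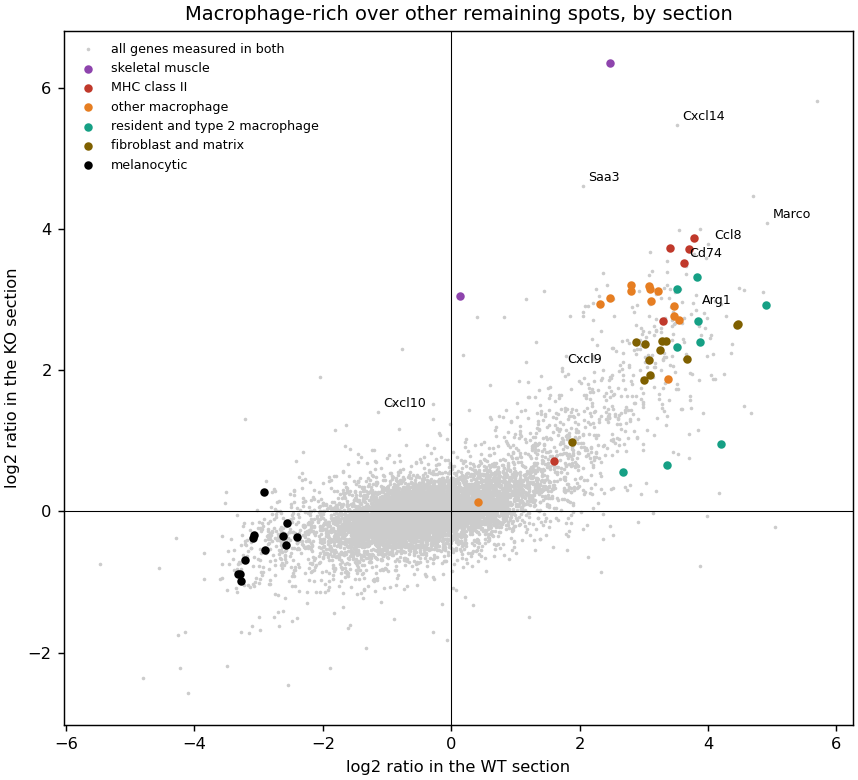
Log2 ratio of macrophage-rich over other spots in the KO section (vertical) and in the WT section (horizontal) for genes measured in both; the ranking genes and the 3 collagens are left out. MHC class II (red) and other macrophage genes (orange) lie at similar heights on both axes, melanocytic genes (black) reach -2.997 as a median in WT and -0.43 in KO, and Cxcl10 is positive in KO and negative in WT.

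The genes with the largest differences between the 2 ratios were of several kinds. Htra3, a secreted protease, had a ratio of 0.86 in KO and 32.8 in WT, Prelp, a matrix proteoglycan, 0.58 and 14.7, and Ackr3, an atypical receptor for Cxcl12, 1.20 and 18.05. In the other direction Catsperd, a subunit of a sperm ion channel, had 0.60 in KO and 0.02 in WT from 1 UMI in WT macrophage-rich spots, Igf2bp1, an oncofetal RNA-binding protein, had 2.47 in KO and 0.11 in WT from 4 UMIs in WT macrophage-rich spots, and Prph, the filament peripherin, 3.74 and 0.24. Applied only to WT spots at or above the median of melanocytic genes, the rule took 150 spots, none of them among the macrophage-rich spots above. In that other set Prelp stood at 0.75, Igf2bp1 at 1.90 and Prph at 2.44, on the other side of 1. These differences between sections have no replicate and were not tested.

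Because collagen followed the macrophage genes, the other spots were also weighted to the collagen content of the macrophage-rich spots in 20 strata, a comparison chosen after the data were seen. At equal collagen 224 genes (2.29%) were 2-fold higher and 29 (0.297%) lower in KO, and 196 (1.96%) higher and 365 (3.65%) lower in WT, with medians of all genes of -0.01 and -0.12 on the log2 scale. The macrophage list had a median of 2.08 in KO and 0.88 in WT, and MHC class II had 2.65 and 0.83. Ctss stood at 4.28 and 1.80, H2-Aa at 6.47 and 1.72, Cd74 at 6.13 and 1.85, and Ccl8 at 3.92 and 3.21. The T cell list had 1.61 in KO, while Arg1 stood at 1.56 in KO and 1.19 in WT and the fibroblast list had medians of 0.38 and 0.20. Resident and type 2 genes had 1.27 and 1.48, with Cd163 at 6.37, Retnla at 10.0 and Cd209f at 12.9 in WT. Some ratios turned: in WT at equal collagen Saa3 stood at 0.26, Hmox1 at 0.89 and Egln3 at 0.36, and in KO Hmga2 stood at 0.82 and Megf10 at 0.66. At equal melanocytic content, a further comparison of this kind, the WT ratios of Cxcl14, Il1rn, Csf1 and Tgfb1 were 0.64, 0.91, 0.87 and 0.90. At equal collagen the WT ratios of Ctss, H2-Aa and Cd74 were each under 2 and the KO ratios above 4. The ranking genes were also lower in WT there. Csf1r stood at 4.50 in KO and 2.04 in WT, Cd68 at 2.97 and 1.72, and C1qa at 3.73 and 2.70. C1qb stood at 3.72 and 2.68, and C1qc at 3.78 and 2.52. Ccl8 differed less, and the resident and type 2 list had the higher median in WT, over unlike sets of measured genes. These differences between sections were not tested.

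Among KO macrophage-rich spots Spearman's rho of the summed ranking level was 0.83 with the macrophage list over 215 spots, 0.70 with MHC class II, 0.63 with collagen and -0.62 with melanocytic genes. Among the 240 WT spots rho was 0.59 for the macrophage list, 0.68 for resident and type 2 genes, 0.17 for MHC class II, -0.10 for collagen and -0.19 for melanocytic genes. Spots of a section share the library, neighbours share tissue, and rho with the UMI total of a spot was -0.48 in KO and -0.21 in WT, so these values describe the spots.

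Values also varied between the quadrants of a section. The macrophage list had medians of 3.14, 3.25, 1.95 and 2.79 in the KO quadrants (upper left, upper right, lower left, lower right), and 2.15, 3.84 and 2.30 in the 3 WT quadrants with such spots. MHC class II had 3.38, 3.40, 2.50 and 3.66 in KO and 1.91, 3.31 and 2.91 in WT. Ccl8 stood at 20.9, 14.9, 3.53 and 13.4 in KO and at 9.06, 18.1 and 11.4 in WT. The lower left KO quadrant was lowest for all 3, and its muscle list had a median of -0.33 against 5.13 to 6.51 in the other three.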

How the data were processed

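Spatial expression was measured in 1 KO and 1 WT section. The authors deposited raw UMI counts per gene and spot for spots under tissue, and a table of grid positions. Per the file headers the software was Space Ranger 2.1.0. The submitters' processing notes also name featureCounts and mm10, with no role. The members and gene lists were chosen with earlier results of these data known. Counts were summed over macrophage-rich and over other spots of a section and scaled to CPM (Python 3.11.15, numpy 2.4.6, scipy 1.17.1, pandas 2.3.3). Of 481 list genes, 464 were among the 19465 of the matrix. The calculation was checked on simulated counts.

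With 1 section per genotype there was no test. Intervals cover counting error only. Genes were named by rule: the 12 highest and 12 lowest ratios per section, the 8 largest differences between sections each way, the 3 most abundant and the extreme members of each list, and a short set always named. Predicted genes were left out, and some other genes are not reported here. TMM factors (edgeR 4.0.16 in R 4.3.3) served only as another scaling. Other alternatives changed the filter, the depth minimum, the shares of spots, the ranking genes, the position and the comparison spots. Images were not used here.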

Additional observations from a re-analysis of the deposited data

Results flagged for a closer look

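The genes 2-fold apart from other spots in opposite directions in the sections were Cxcl10, with ratios of 2.65 in KO and 0.454 in WT, Hmga2 (2.23 and 0.284), Igf2bp1 (2.47 and 0.108), Prph (3.74 and 0.242), Megf10 (2.33 and 0.320) and Selenbp1 (0.356 and 2.31). The differences between sections were not tested.

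Spots that the rule left out also carried the ranking genes at or above the lowest level of the macrophage-rich spots. In KO these were 232 collagen-rich spots and 176 spots under 5000 UMIs, and in WT 108 and 79 spots.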

How the results depend on the processing

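No paired analysis was possible because each genotype had 1 section. Over 28 alternative settings, 45 of 3628 values of the 135 gene ratios and 6 of 1059 values of the 39 list medians that stood at least 2-fold apart changed direction. Of the same values, 3351 of gene ratios and 947 of list medians stayed at least 2-fold apart in the same direction, and the rest did not. Matching on collagen or melanocytic content and leaving out muscle-rich spots or the largest patch were chosen after seeing the data. Where a count or direction changed, the cause was not tested. In WT macrophage-rich spots 1 UMI was worth 84.5 CPM at the median depth, so lower levels were not resolved per spot.

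The 500 genes 2-fold higher in KO became 929 with a minimum of 200 UMIs per gene, 2896 with no filter, 258 with 20% of collagen-rich spots left out, 1165 with none left out, 207 in rim spots, 98 in melanocytic-rich spots, 256 against spots within 3 steps, 224 matched on collagen and 325 matched on melanocytic content. The 86 lower in KO became 748 with no filter, 46 in spots of at least 10000 UMIs, 160 with no least UMIs, 190 for the top 5%, 42 for the top 20%, 39 with 20% of collagen-rich spots left out, 1665 with none left out, 56 with a ranking on thinned spots, 22 in rim spots, 9 in melanocytic-rich spots, 14 within 3 steps, 29 matched on collagen and 50 matched on melanocytic content. The 1334 higher in WT became 6871 with no filter, 863 with 20% of collagen-rich spots left out, 879 in rim spots, 218 in melanocytic-rich spots, 583 within 3 steps, 196 matched on collagen and 126 matched on melanocytic content. The 2145 lower in WT became 1333 in spots of at least 10000 UMIs, 707 for the top 20%, 308 with 20% of collagen-rich spots left out, 26 in melanocytic-rich spots, 828 within 3 steps, 365 matched on collagen and 170 matched on melanocytic content.

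The 44.7% of WT-higher genes also higher in KO became 48.5% with TMM factors, 52.4% with equal weight per spot, 53.3% with 200 UMIs per gene, 35.5% with no filter, 35.1% at 10000 UMIs per spot, 55.7% with no least UMIs, 51.3% for the top 5%, 37.6% with 20% of collagen-rich spots left out, 86.0% with none left out, 49.5% ranked on Csf1r and Cd68, 40.3% with thinned ranking, 35.4% in rim spots, 39.3% in interior spots, 58.6% in melanocytic-rich spots, 15.4% matched on melanocytic content, 35.1% without muscle-rich spots and 38.3% without the largest patch. Without the upper left, upper right or lower right quadrant it was 41.2%, 40.2% or 39.9%.

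Matched on melanocytic content, the WT list medians were -0.15 for inflammatory cytokines, -0.85 for endothelial, -1.10 for pericyte, -0.18 for fibroblast and -0.29 for adipocyte genes, and matched on collagen -0.39 for pericyte genes. In KO, the ratio of Egln3 was 0.856 matched on melanocytic content. That of Hmga2 was 0.817 matched on collagen and 0.728 on melanocytic content, and that of Megf10 0.656 and 0.526, with 0.956 when no collagen-rich spots were left out, where Selenbp1 stood at 1.33. In WT matched on melanocytic content the ratios were 0.239 for Acta1, 0.898 for Col1a1, 0.938 for Col1a2, 1.10 for Cd79a, 0.870 for Csf1, 1.20 for Cxcl10, 0.640 for Cxcl14, 0.476 for Egln3, 1.05 for Gsta4, 0.908 for Il1rn, 1.02 for Kcnj13, 0.633 for Plvap, 0.501 for Saa3, 1.13 for Tfrc, 0.899 for Tgfb1 and 1.01 for Tyr. In WT matched on collagen they were 0.908 for Col1a1, 0.973 for Col1a2, 0.356 for Egln3, 0.889 for Hmox1, 1.26 for Kcnj13 and 0.262 for Saa3. The WT melanocytic-rich setting took spots of its own, none of them among the macrophage-rich spots of the main rule. In that setting the WT ratios were 1.01 for Car9, 1.62 for Cd79a, 2.16 for Cxcl10, 1.17 for Gpnmb, 1.73 for Hmga2, 1.90 for Igf2bp1, 1.69 for Megf10, 1.05 for Pmel, 0.748 for Prelp, 2.44 for Prph, 0.660 for Selenbp1 and 1.02 for Sms. With 20% of collagen-rich spots left out in WT they were 1.04 for Cxcl10, 1.08 for Hmga2, 1.14 for Igf2bp1 and 1.07 for Prph.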
